A study of Mus musculus with 4 samples.

Results

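Border-associated macrophages carrying much MHC class II mRNA were examined in single-cell RNA-seq of mouse brain, read as droplet barcodes with a count of unique molecular identifiers (UMIs) per gene. A barcode was a member if it held 1000 or more UMIs with at most 10% from mitochondrial genes, a UMI of at least 3 of the 7 border macrophage markers Mrc1, Pf4, F13a1, Cd163, Ms4a7, Cd209f and Clec10a, and 10 or more UMIs of H2-Aa, H2-Ab1 and H2-Eb1 together. Members were thus chosen by their own UMI counts of these 10 genes, and this rule took 296 of the 24520 deposited barcodes. The 804 barcodes with the same border macrophage markers but fewer than 10 class II UMIs served as the class II-low comparison. There were 4 libraries, 1 for each genotype: wild-type, TERF2DN-Tg, APP/PS1, and the combination written APP/PS1; TERF2DN in the labels, here called the combined genotype. TERF2DN interferes with the telomere-binding protein TERF2, and APP/PS1 mice carry transgenes that lead to amyloid deposits. Cells were taken from brain with magnetic beads against CD11b, a myeloid surface protein, and carry the label microglia. Neither the promoter driving TERF2DN nor age, sex or number of animals is known from the labels. Where 4 values follow each other without names, they stand for wild-type, TERF2DN-Tg, APP/PS1 and the combined genotype. Genotype comparisons have no replicates and therefore no test.

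Macrophages at the borders of the brain (meninges, perivascular spaces and choroid plexus) differ from microglia in origin and in the receptors they carry, among them the mannose receptor Mrc1 and the scavenger receptor Cd163. They are commonly divided into a class II-low population rich in Lyve1 and Folr2 and a class II-high population, part of which is replaced from blood monocytes. MHC class II molecules present peptides to helper T cells. The invariant chain Cd74 escorts them to the endosome, H2-DM exchanges the invariant chain fragment for peptide, H2-O restrains H2-DM, and the factor Ciita switches the group of genes on through the X and Y boxes of their promoters.

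The member rule rests on H2-Aa, H2-Ab1 and H2-Eb1, which lie with H2-DM and H2-O in the MHC on chromosome 17. Promoters of some class II pathway genes are shown because these genes moved with the rule's genes in the comparison that follows. Those of the rule gene H2-Ab1 and of Cd74, Ciita and Ifi30, which moved as well, are not shown. The sequences are RefSeq's on GRCm38.p6, 300 bases each, from 250 before to 50 after the start, 5′ to 3′ along the gene, with the X box core AACNNATGATG and the Y box core TGATTGG in capitals.
H2-Eb1, chr17:34305617-34305916, plus strand: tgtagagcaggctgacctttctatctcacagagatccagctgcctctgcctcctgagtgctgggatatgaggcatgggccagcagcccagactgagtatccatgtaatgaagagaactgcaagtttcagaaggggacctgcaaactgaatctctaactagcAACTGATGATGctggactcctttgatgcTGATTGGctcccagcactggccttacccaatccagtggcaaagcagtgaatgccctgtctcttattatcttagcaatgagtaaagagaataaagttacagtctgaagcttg
H2-DMb1, chr17:34152941-34153240, plus strand: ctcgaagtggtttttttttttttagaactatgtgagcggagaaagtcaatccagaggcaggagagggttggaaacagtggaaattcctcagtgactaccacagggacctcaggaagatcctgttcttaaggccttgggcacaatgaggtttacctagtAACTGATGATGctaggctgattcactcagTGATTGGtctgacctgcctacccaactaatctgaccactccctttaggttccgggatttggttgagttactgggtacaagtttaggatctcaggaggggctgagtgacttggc
H2-DMb2, chr17:34144999-34145298, plus strand: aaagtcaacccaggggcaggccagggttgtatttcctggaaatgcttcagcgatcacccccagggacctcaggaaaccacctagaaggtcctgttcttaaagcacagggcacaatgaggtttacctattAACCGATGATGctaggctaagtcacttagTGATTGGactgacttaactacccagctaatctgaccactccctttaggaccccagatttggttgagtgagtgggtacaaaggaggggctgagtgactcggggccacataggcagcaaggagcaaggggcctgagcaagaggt
H2-Ob, chr17:34238655-34238954, plus strand: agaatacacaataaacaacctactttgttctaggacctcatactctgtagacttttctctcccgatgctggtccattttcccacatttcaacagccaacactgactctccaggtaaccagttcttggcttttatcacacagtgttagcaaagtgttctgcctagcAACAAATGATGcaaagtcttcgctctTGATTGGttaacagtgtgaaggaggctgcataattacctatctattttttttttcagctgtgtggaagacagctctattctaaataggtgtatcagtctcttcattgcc
H2-Aa, chr17:34287774-34288073, minus strand: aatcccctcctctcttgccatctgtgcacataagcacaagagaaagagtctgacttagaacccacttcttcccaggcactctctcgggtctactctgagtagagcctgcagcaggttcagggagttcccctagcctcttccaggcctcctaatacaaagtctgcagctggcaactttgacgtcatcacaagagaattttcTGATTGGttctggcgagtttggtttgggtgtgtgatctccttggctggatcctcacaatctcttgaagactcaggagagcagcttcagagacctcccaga
H2-Oa, chr17:34092129-34092428, plus strand: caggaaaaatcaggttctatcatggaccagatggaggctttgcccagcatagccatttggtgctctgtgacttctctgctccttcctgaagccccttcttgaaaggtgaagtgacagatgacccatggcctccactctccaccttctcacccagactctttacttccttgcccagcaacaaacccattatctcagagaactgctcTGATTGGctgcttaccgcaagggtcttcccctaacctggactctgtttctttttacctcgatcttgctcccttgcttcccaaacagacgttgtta
Both cores stood in this order in H2-Eb1, H2-DMb1, H2-DMb2 and H2-Ob, whereas H2-Aa and H2-Oa matched the Y box core alone and H2-DMa, with 2 listed starts, neither. The X box letters are the bases that these first 4 promoters share ahead of the Y box, and they were chosen after the promoters were read. These 4 therefore match by construction, and the shares that follow give no test of them. Searched on both strands, the X box core was found in 45 of 32851 promoters of the same length (0.137%), the Y box core in 2568 (7.82%) and both in 9 (0.0274%). A match is only a description of the letters.

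Members numbered 120, 95, 35 and 46 in the 4 libraries, or 1.66%, 1.95%, 0.711% and 0.943% of the barcodes that passed the UMI and mitochondrial limits. Barcodes with border macrophage markers of either class made up 6.76%, 6.82%, 2.34% and 3.34%. Both shares were lower in the 2 libraries with APP/PS1, where selection of cells and number of cells cannot be told apart. Within the barcodes with border macrophage markers, the class II-high share was 24.5% in wild-type (Clopper-Pearson 95% interval 20.7% to 28.5%), 28.6% in TERF2DN-Tg (23.8% to 33.8%), 30.4% in APP/PS1 (22.2% to 39.7%) and 28.2% in the combined genotype (21.5% to 35.8%). The 4 intervals overlap, and they cover counting error only. Depth moved with the class: the median member held 9191.5, 8334, 10417 and 7121.5 UMIs, and the median class II-low barcode 6440, 6668, 5333 and 4688. Barcodes with 2000 or more UMIs (452, 303, 101 and 145 with border macrophage markers) were then thinned to 2000 UMIs. With 5 class II UMIs as the limit, their shares were 22.3%, 25.7%, 24.8% and 21.4%. Before thinning, the shares in these same barcodes were 26.1%, 30.7%, 34.7% and 30.3%. Those left out were 2, 2, 0 and 2 members and 36, 27, 14 and 16 class II-low barcodes. Just inside the limit, 26 members held 10 to 14 class II UMIs, and just outside it, 51 barcodes held 5 to 9. A total of 609 barcodes with border macrophage markers held no class II UMI.

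The label was checked against marker genes before any comparison. Mrc1 and Ms4a7, markers of border macrophages, reached 704, 443, 379 and 714 CPM (UMIs per 1000000) and 446, 310, 253 and 425 CPM in the members summed by library, and they chose the members. All 25 border macrophage genes outside the rule had UMIs in the members of each library, but so had all 10 genes of a microglia list. Detection in sums of this depth therefore does not tell cell types apart. Microglial genes were also high in many members. The sum of P2ry12, Tmem119, Sall1, Gpr34, P2ry13, Olfml3 and Siglech was 1500 CPM or more in 135 of the 296 members, 62, 37, 21 and 15 by library, and 94 members held all 7. The number of members fell from 71 between 400 and 800 CPM to 45 between 800 and 1200 CPM and 15 between 1200 and 1600 CPM, with a long tail above, and the limit of 1500 CPM marks a range and not a type. Members above 1500 CPM were deeper, with medians of 11854, 16417, 18656 and 16079 UMIs against 6156.5, 6008.5, 5959.5 and 6347 below it. Their border macrophage markers were lower as a share, with medians of 1615, 840, 1248 and 2051 CPM against 4415, 2966, 1864 and 5038 CPM, and so were the 3 class II genes, with 5180, 5177, 5734 and 3216 CPM against 15625, 14392, 17179 and 15007 CPM. A caller based on simulated doublets marked 36 members, and all 36 were above 1500 CPM. Near the limit, between 1200 and 1800 CPM, lay 22 members. Class II-low barcodes were above 1500 CPM in 368 of 804. In barcodes gated on endothelial genes, which should lack them, the median sum was 107, 136, 0 and 0 CPM. The rule thus takes barcodes with both border macrophage and microglial RNA as well as barcodes with little microglial RNA, and results are given for all 296 and for the 161 members under 1500 CPM (58, 58, 14 and 31), called microglia-poor. That limit was set after the values were seen.

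**Figure D1:**
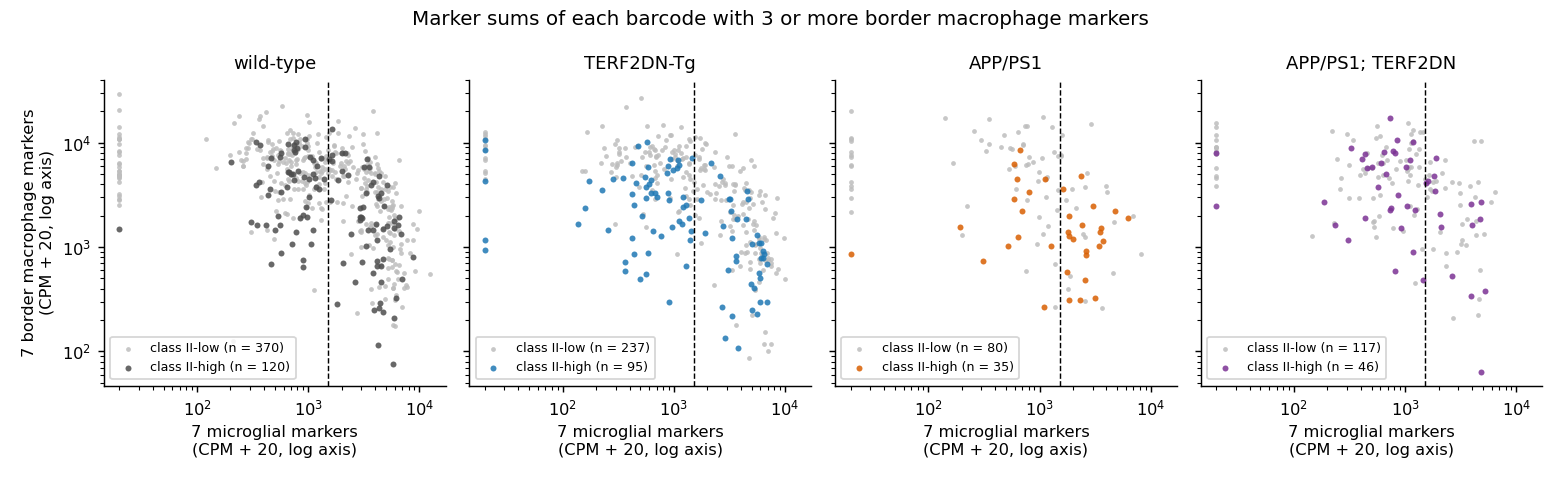
Each point is 1 barcode with 3 or more border macrophage markers, coloured where it is class II-high and grey where it is class II-low. Both log axes show CPM + 20 of the 7 microglial markers and of the 7 border macrophage markers, and the dashed line is the limit of 1500 CPM, above which lie 135 of the 296 members.

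Markers of other cells were read in the same sums. Monocyte markers were detected for 14, 10, 7 and 10 of 14 genes and summed to 373, 327, 250 and 172 CPM, against 230, 57.0, 47.9 and 64.9 CPM in the class II-low barcodes. Dendritic cell markers were detected for 20, 18, 13 and 16 of 20 genes at 636, 601, 593 and 513 CPM, close to 653, 539, 567 and 522 CPM in the class II-low barcodes, and Ccr7 was at 0 in 3 libraries. At least 2 of 9 dendritic cell and monocyte markers were present in 25 members. The T and NK cell list stayed between 1.8 and 12.6 CPM, with Cd3e, Cd3g and Trbc2 at 0 in every library. B cell genes summed to 299, 270, 182 and 139 CPM in members and 203, 196, 144 and 116 CPM in class II-low barcodes. In microglia-poor barcodes these sums were 547, 455, 163 and 126 CPM against 205, 127, 151 and 108 CPM. Single barcodes carried much of some genes: 1198 of 1217 S100a8 UMIs in wild-type members came from 1 barcode, and Igkc rested on 79 of 88 UMIs in wild-type and all 41 in TERF2DN-Tg. Their part in the results was not tested except by the alternatives given beside them. The libraries shared 7 to 13 barcode sequences per pair, and 1 member's barcode recurred in another library.

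Members were compared with class II-low barcodes of the same library. They held more mRNA of the class II loading machinery and of genes known from class II-high and monocyte-derived cells. They held less of the Lyve1, Folr2 and Cd209 group and of 18 of 25 border macrophage genes outside the rule. In edgeR's quasi-likelihood test with library as a block, 221 of 8684 genes were higher (2.54%) and 175 lower (2.02%) at a Benjamini-Hochberg adjusted p under 0.05. The p-values weigh the class difference against its spread over these 4 libraries, with that spread moderated across genes. Each library is a different genotype, so spread between animals of the same genotype is not measured. Among microglia-poor barcodes 161 of 5477 genes were higher (2.94%) and 123 lower (2.25%), of which 120 and 87 were also called in the whole set. All 194 higher and 158 lower genes that could be tested again kept their direction. Leaving out TERF2DN-Tg brought the counts to 72 and 72, and leaving out wild-type to 95 and 90. The 10 rule genes take part in these counts and carry no test below.

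Cd74, the invariant chain, is the clearest case outside the rule. Its level in members was 8420, 9300, 7373 and 7515 CPM, against 199, 159, 142 and 324 CPM in the class II-low barcodes. No library of one class came near the other, and the fitted log2 difference was 5.41 ± 0.31 (SE, adjusted p = 0.00174 in edgeR). In microglia-poor barcodes it was 5.78 ± 0.23 (edgeR adjusted p = 3.15e-29), and with 5 of the 7 border macrophage markers required the adjusted p was 0.059 over 3 libraries. H2-DMb1, the beta chain of the peptide exchanger, stood at 276, 268, 211 and 233 CPM in members and 74.4, 73.4, 65.6 and 71.8 CPM in class II-low barcodes. The classes did not overlap, with a log2 difference of 1.88 ± 0.10 (edgeR adjusted p = 2.67e-12). Its partner H2-DMa, the alpha chain, was at 384, 434, 310 and 289 CPM against 150, 133, 97.5 and 130 CPM, a log2 difference of 1.53 ± 0.10 (edgeR adjusted p = 1.38e-10). Both differences were larger in microglia-poor barcodes, 2.87 ± 0.17 for H2-DMb1 and 2.74 ± 0.18 for H2-DMa. Ciita, the master regulator, had 61, 51, 26 and 15 UMIs in members and 1, 1, 0 and 0 in class II-low barcodes (edgeR adjusted p = 3.52e-11).

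Of 17 tested class II pathway genes outside the rule, 8 were higher: Cd74, H2-DMa, H2-DMb1, H2-DMb2, H2-Oa, H2-Ob, Ciita and the lysosomal thiol reductase Ifi30, with H2-Ob not in 1 direction in every library. None was lower in edgeR, also at an unadjusted p under 0.05, and DESeq2 called 5 higher and 0 lower. The median log2 difference of the list was 0.29, against -0.00 over all genes tested. H2-DMb2 shares near-identical sequence with H2-DMb1, and how reads were split between them is uncertain. In microglia-poor barcodes 5 of 14 were higher. Of 15 tested class I pathway genes, non-classical ones included, 8 were higher and none lower in edgeR (10 and 0 at an unadjusted p under 0.05, 3 and 0 in DESeq2), with a list median of 0.35. In microglia-poor barcodes 5 of 14 were higher. H2-K1, a classical class I heavy chain, was at 603, 591, 741 and 1019 CPM in members and 446, 442, 574 and 563 CPM in class II-low barcodes. H2-Q7, a non-classical class I chain, was at 33.9, 47.7, 58.4 and 81.3 CPM against 15.7, 10.6, 28.4 and 13.9 CPM, and it has close paralogs. Costimulatory genes did not move as a group: of 8 tested, Slamf7 was higher and Cd200r1, an inhibitory receptor, was lower. Cd86, a ligand of the T cell receptor CD28, was at 157, 163, 147 and 163 CPM in members and 200, 187, 191 and 218 CPM in class II-low barcodes (edgeR adjusted p = 0.113).

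**Figure D2:**
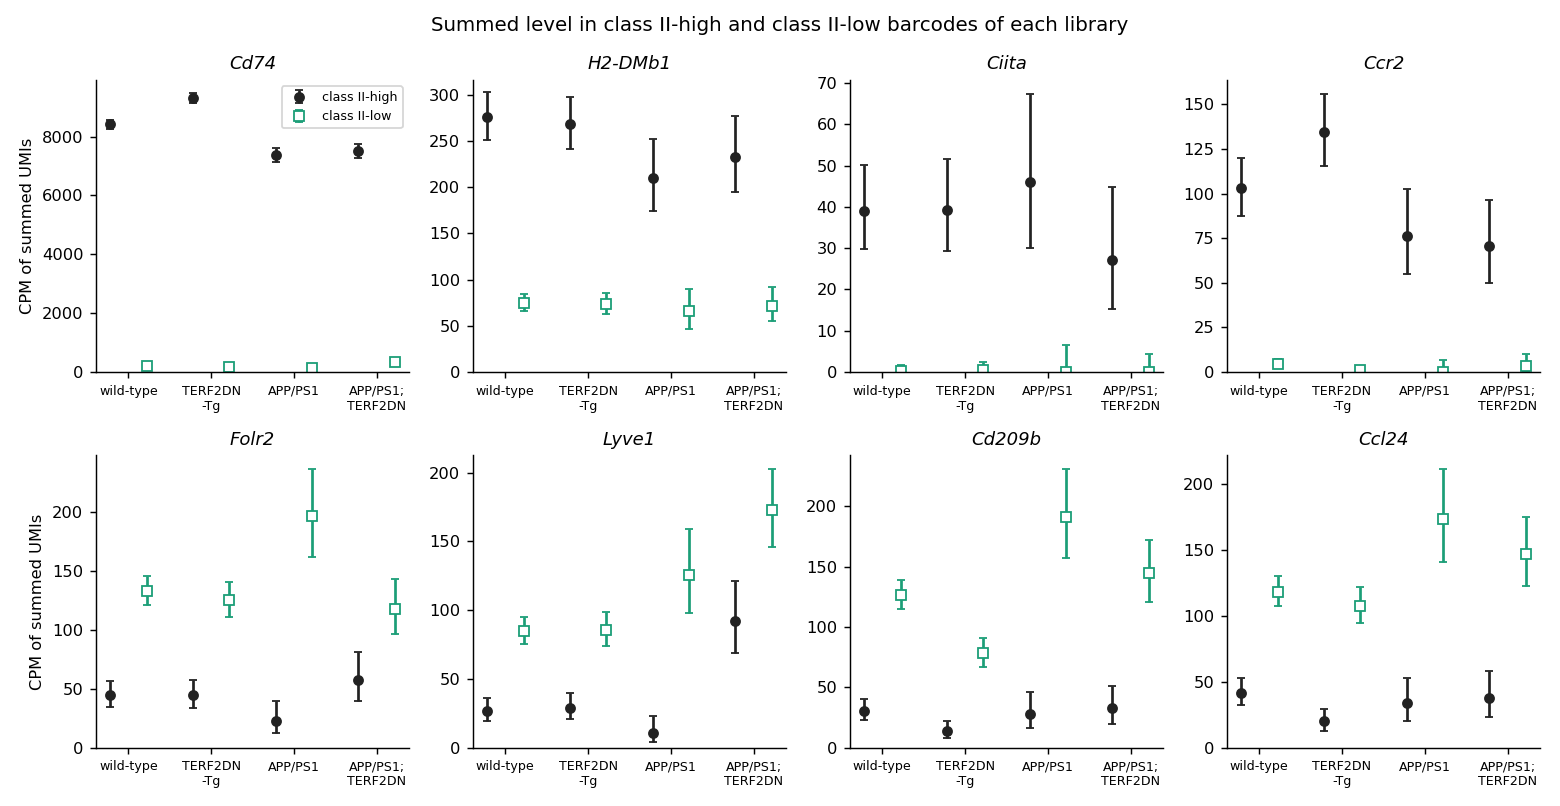
Summed level in CPM of 8 genes by library, filled circles for class II-high members and open squares for class II-low barcodes, with exact Poisson 95% intervals. Cd74, H2-DMb1, Ciita and Ccr2 are higher in members of all 4 libraries, and Folr2, Lyve1, Cd209b and Ccl24 are lower.

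Genes known from class II-high border macrophages and their monocyte ancestry were higher. Of 15 such genes, 12 passed as higher (median log2 difference 1.002), and 11 of 15 did in microglia-poor barcodes. The list was chosen with earlier results of these data known. Ccr2, the chemokine receptor that brings monocytes out of bone marrow and into tissue, stood at 103, 135, 76.1 and 70.5 CPM in members and at 4.65, 0.884, 0 and 3.48 CPM in class II-low barcodes. The log2 difference was 5.22 ± 0.26 (edgeR adjusted p = 3.52e-11). The UMIs came from 30, 31, 4 and 8 members, so that most members held none. Plbd1, a phospholipase of myeloid cells, was at 77.4, 94.6, 37.2 and 90.3 CPM against 10.5, 1.33, 0 and 5.79 CPM, and its log2 difference of 3.82 ± 0.44 (edgeR adjusted p = 0.00759) was lost without the combined genotype, with 5 of 7 markers and without predicted doublets. Fxyd5, a regulator of the sodium pump, was at 186, 218, 248 and 228 CPM against 45.1, 41.1, 56.7 and 78.8 CPM, a log2 difference of 2.11 ± 0.12. Mgl2, a C-type lectin of macrophages and dendritic cells and a paralog of the rule gene Clec10a, was at 255, 195, 127 and 108 CPM against 61.6, 38.0, 74.4 and 32.4 CPM. Its call was lost without barcodes holding dendritic cell and monocyte markers (largest adjusted p 0.0964).

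Cxcl13, a chemokine that attracts B cells, had 187, 193, 68 and 328 UMIs in members, from 13, 14, 5 and 5 barcodes. A single barcode of the combined genotype held 133 of them, and the adjusted p was 0.0129 in all barcodes and 0.211 in microglia-poor ones. S100a4, Lgals3 and Itgax, genes raised in activated myeloid cells, passed in all barcodes with log2 differences of 3.66, 1.59 and 1.55. In microglia-poor barcodes the differences were 3.05, 1.47 and 1.62 with larger SEs (0.93, 0.38 and 0.55) and edgeR adjusted p of 0.244, 0.132 and 0.076. In edgeR 5 of 9 tested monocyte markers were higher (Ccr2, Plac8, S100a4, Ms4a4c and Cd44) and Chil3 was lower. In microglia-poor barcodes 2 of 6 were higher (Ccr2 and Ms4a4c). Of 8 tested dendritic cell markers 4 were higher: Clec9a, Batf3, Cd24a and Itgax. In microglia-poor barcodes 1 of 6 was higher (Batf3) and 1 lower (Cd209a). Of 3 tested B cell genes 2 also passed as higher in edgeR, Cd79b and Cd79a, the latter from 2 wild-type barcodes and 1 TERF2DN-Tg barcode. DESeq2 called 1 of them. In microglia-poor barcodes 3 of 4 were higher (Cd79a, Cd79b and Ighm).

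The genes of class II-low border macrophages were lower in members. Of 18 tested, 14 passed as lower (median log2 difference -1.30) and none as higher, also at an unadjusted p under 0.05, and DESeq2 called 13 lower and 0 higher. In microglia-poor barcodes 12 of 17 were lower. This list too was chosen with earlier results known. Folr2, a folate receptor, was at 44.8, 44.6, 23.003 and 57.8 CPM in members and 133, 126, 197 and 118 CPM in class II-low barcodes, a log2 difference of -1.60 ± 0.20 (edgeR adjusted p = 0.000599). Lyve1, a hyaluronan receptor, was at 26.9, 29.2, 10.6 and 92.1 CPM against 84.9, 85.7, 126 and 173 CPM, a log2 difference of -1.54 ± 0.24. A single barcode of the combined genotype held 33 of its 51 Lyve1 UMIs, and the call was lost without TERF2DN-Tg, with mitochondrial UMIs of at most 5%, and with class II limits of 20 UMIs and of 0.2% of UMIs (largest adjusted p over the alternatives 0.405). Cd209b, a lectin related to DC-SIGN, was at 30.7, 13.8, 28.3 and 32.5 CPM against 126, 78.2, 191 and 145 CPM, a log2 difference of -2.23 ± 0.14 (edgeR adjusted p = 4.64e-11). The related Cd209d and Cd209g differed by -1.94 and -2.46, with Cd209g at an adjusted p of 0.147 in microglia-poor barcodes. These lectins are paralogs, and their reads may be shared.

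Ccl24, an eosinophil-attracting chemokine, was at 41.6, 19.99, 33.6 and 37.9 CPM in members and 118, 108, 174 and 147 CPM in class II-low barcodes, a log2 difference of -1.90 ± 0.14 (edgeR adjusted p = 1.43e-09). Ednrb, an endothelin receptor, had 21, 7, 1 and 1 UMIs in members and 163, 116, 35 and 32 in class II-low barcodes. Egfl7, Tslp, Gpx3, Mgst1 and Clec4n, among them an epithelial alarmin and an antioxidant enzyme, were lower as well (log2 differences from -1.69 to -1.15, the lowest in Egfl7 and the highest in Mgst1). Timd4, another marker of long-lived macrophages, had a log2 difference of -0.79 that did not pass (edgeR adjusted p = 0.275). Of 25 border macrophage genes outside the rule 18 were lower, among them the scavenger receptor Stab1 and the growth factor Gas6, with 13 lower in DESeq2 and 11 of 25 in microglia-poor barcodes. The 7 border macrophage markers of the rule, which carry no test, were lower too. They summed to 2512, 1649, 1433 and 2629 CPM in members and 3893, 3339, 4851 and 4125 CPM in class II-low barcodes. In microglia-poor barcodes these sums were 4617, 3152, 2361 and 4316 CPM against 6551, 7266, 6597 and 5832 CPM. Only 3 of the markers were detected in 83 of 296 members and 128 of 804 class II-low barcodes. Apoe, the lipid carrier, was at 31256, 24795, 41787 and 37171 CPM in members and 43832, 34395, 58212 and 48646 CPM in class II-low barcodes, a log2 difference of -0.41 ± 0.09 (edgeR adjusted p = 0.00907). In microglia-poor barcodes it was -0.48 ± 0.19 (edgeR adjusted p = 0.152).

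**Figure D3:**
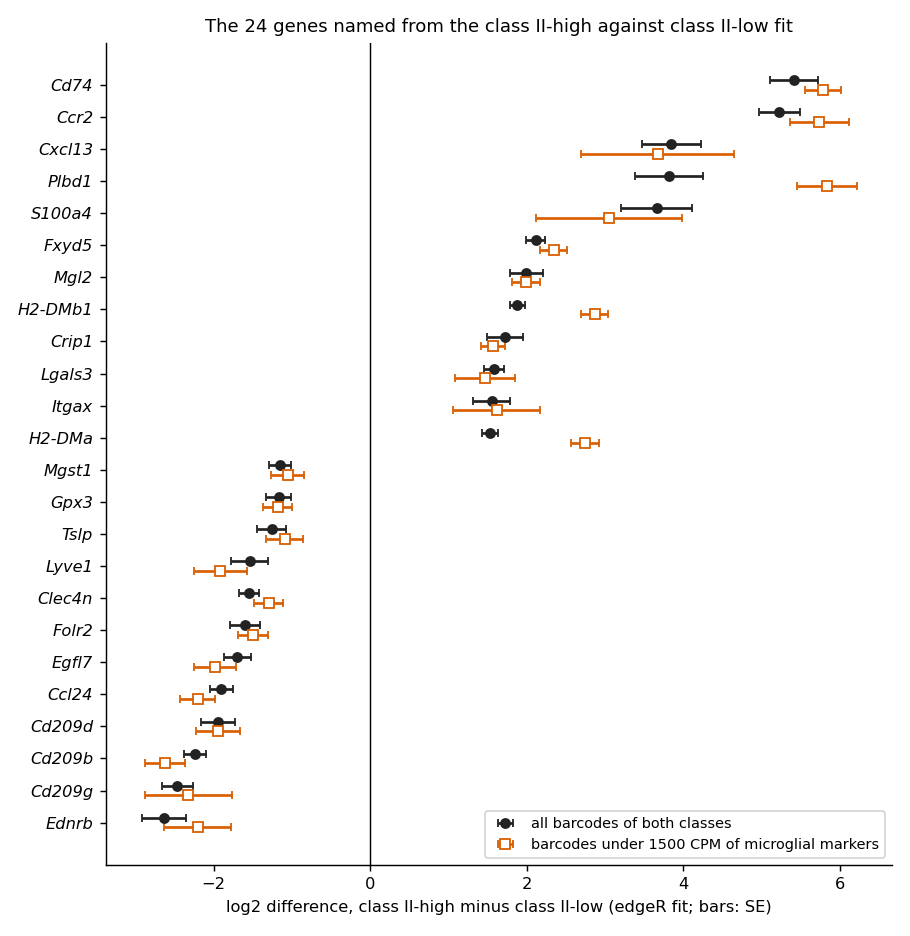
Fitted log2 difference between class II-high and class II-low barcodes for 24 genes taken by a fixed rule, with bars of 1 SE, for all barcodes (filled circles) and microglia-poor barcodes (open squares). All 24 lie on the same side of 0 in both sets, and 5 lost their call in the second (Cxcl13, S100a4, Lgals3, Itgax and Cd209g).

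Members were not alike in these genes. Among the 161 microglia-poor members, 29 held a Ccr2 UMI and none of Lyve1, Folr2, Cd209b, Cd209g, Ednrb and Ccl24, 60 held one of those 6 genes without Ccr2, 8 held both and 64 neither. The genes of this split were chosen after their values were seen, and a UMI missed at this depth is not absence of the mRNA. Barcodes with Ccr2 alone (12, 13, 2 and 2) had a median border macrophage marker sum of 1453, 1141, 893 and 2340 CPM. Those with the other genes alone (30, 17, 3 and 10) had 5324, 5063, 1229 and 7940 CPM. Whether the barcodes with Ccr2 alone are border macrophages was not tested. After thinning, Ccr2 was detected in 15.3%, 20.4%, 8.6% and 9.1% of members (25%, 32.6%, 11.4% and 17.4% before) and in at most 1.0% of class II-low barcodes. No Ccr2 UMI was found in endothelial barcodes, whose median depth was 6241, 5852, 5864 and 5402.5 UMIs.

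Members were next set beside class II-high microglia, meaning barcodes over the same class II limit with at least 3 of the 7 microglial markers and fewer than 2 border macrophage markers. These numbered 48, 35, 478 and 281, so that they were far more frequent in the 2 libraries with APP/PS1, while members were less frequent there. The shared limit did not match class II level or depth. Median class II UMIs were 83.5, 90, 90 and 67.5 in members and 61.5, 57, 30 and 32 in class II-high microglia. The median depth of these microglia was 10819.5, 10342, 12783 and 13800 UMIs, above that of members in each library. In edgeR 214 of 8335 genes were higher in members (2.57%) and 226 lower (2.71%). Cbr2, a carbonyl reductase typical of border macrophages, was at 88.9, 61.5, 35.4 and 95.8 CPM in members and 3.20, 2.07, 0.159 and 0.502 CPM in class II-high microglia (log2 difference 6.39 ± 0.37, edgeR adjusted p = 2.42e-09). Dab2, an endocytic adaptor, was at 289, 197, 193 and 349 CPM against 30.4, 24.8, 29.8 and 44.4 CPM. C4b, a complement component, Vcam1, an adhesion molecule, and the chemokines Ccl8 and Ccl12 were also higher, though Ccl8 and Ccl12 lost their call without wild-type or without TERF2DN-Tg, and Ccl8 also with class II limits of 20 UMIs and of 0.2%. Il4i1, an enzyme that consumes phenylalanine, was at 4.48, 6.92, 24.8 and 16.3 CPM in members and 38.4, 78.7, 99.9 and 56.0 CPM in class II-high microglia (log2 difference -2.71 ± 0.26, edgeR adjusted p = 3.56e-06). Itgax, Lpl and Siglecf, of which Itgax and Lpl belong to the disease-associated microglia genes, differed by -2.45, -2.08 and -2.59 on the log2 scale. With the class II limit of 0.2% of UMIs, Il4i1 and Itgax lost their call (edgeR adjusted p = 0.0958 and 0.161). Lpl lost its call without predicted doublets (edgeR adjusted p = 0.076). Of 19 disease-associated microglia genes 8 were lower and none higher in edgeR (none also at an unadjusted p under 0.05, and 13 lower and 0 higher in DESeq2), with a list median of -0.99 against 0.01 over all genes tested. Members above 1500 CPM of microglial markers take part in this contrast. Between microglia-poor members and the same class II-high microglia, 254 of 5980 genes were higher (4.25%) and 299 lower (5%), and Cbr2, Dab2, Il4i1, Itgax and Siglecf kept their call.

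Genotype comparisons were made in the members' summed UMIs, with 1 library each. A ratio of CPM + 20 of at least 2 was the limit, among genes with 20 or more UMIs over both libraries. The 4 comparisons share libraries and are not independent, and the added 20 CPM understates differences of low genes. Intervals of ratios are 95% and cover counting error only. APP/PS1 against wild-type had 57 higher genes (0.722%) and 39 lower (0.494%). TERF2DN-Tg against wild-type had 10 (0.115%) and 19 (0.218%). The combined genotype had 42 higher (0.726%) and 18 lower (0.311%) against APP/PS1, and 42 (0.559%) and 18 (0.24%) against TERF2DN-Tg. In microglia-poor members the shares past the limit were higher and less even. There were 60 higher (1.84%) and 255 lower (7.82%) in APP/PS1 against wild-type, and 15 (0.327%) and 49 (1.07%) in TERF2DN-Tg against wild-type. The combined genotype had 177 (8.93%) and 27 (1.36%) against APP/PS1, and 75 (2.09%) and 40 (1.11%) against TERF2DN-Tg. The microglia-poor sums held 451855, 399772, 110556 and 222208 UMIs, and that of APP/PS1 came from 14 barcodes. A few UMIs weigh most in comparisons with APP/PS1, and their part in these uneven counts was not tested.

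In members, which were selected for class II UMIs, Cd74, H2-DMa and H2-DMb1 did not pass the limit in any of the 4 comparisons. Of 17 measured class II pathway genes 1 passed the limit in APP/PS1 against wild-type, the lysosomal protease Ctsl (795, 733, 1996 and 1994 CPM). Terf2, whose dominant-negative form defines the transgene, had 32, 26, 10 and 11 UMIs in members (20.5, 19.99, 17.7 and 19.9 CPM). Whether mRNA of the transgene is counted as Terf2 is not known from the labels, so that these counts do not check the genotypes.

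Genes of the disease-associated microglia list were higher in members of the APP/PS1 library. Of 19 measured, 12 passed the limit against wild-type (list median 1.39, all measured genes -0.10). In microglia-poor members 3 of 13 did (Cst7, Fabp5 and Lgals3), Igf1 was lower, and the list median was 0.58. Cst7, a cathepsin inhibitor, was at 24.3, 26.1, 1017 and 506 CPM, with UMIs in 13, 10, 28 and 20 members. Endothelial barcodes, which should lack it, held a Cst7 UMI in 0%, 0%, 20% and 17.6% (median depths given above for Ccr2), and class II-low barcodes in 3.51%, 3.38%, 38.8% and 47.0%, against 10.8%, 10.5%, 80% and 43.5% of members. Thinned to 2000 UMIs, the shares in APP/PS1 were 48.6% of members, 24.2% of class II-low and 13.8% of endothelial barcodes, and in the combined genotype 29.5%, 31.7% and 9.68%. The share was higher in both libraries with APP/PS1 in all 3 kinds of barcode, and the part of free RNA was not tested. Both libraries with APP/PS1 lay above both without it, with a ratio of 41.9 between APP/PS1 and wild-type (30.1 to 59.8). However, 1 barcode held 37.6% of the Cst7 UMIs of APP/PS1 members, and 1 barcode held 28.2% in the combined genotype. In microglia-poor members Cst7 was at 37.6, 5.0, 317 and 437 CPM, the same order of the pairs. Fabp5, a fatty acid carrier, was at 30.1, 33.8, 559 and 251 CPM in all members and 39.8, 42.5, 145 and 284 CPM in microglia-poor ones. Serpine2, a protease inhibitor, was at 161, 160, 503 and 405 CPM, and 26.6, 12.5, 163 and 180 CPM. Of the Fabp5 UMIs in all APP/PS1 members, 1 barcode held 41.8%. Gpnmb had 113 UMIs in 9 of 35 APP/PS1 members and none in 120 wild-type members, and no UMI in the 14 microglia-poor APP/PS1 members.

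Genes past the limit in both libraries with APP/PS1 against both others numbered 16 higher (0.207%), among them Cst7, Fabp5, Lpl, Csf1, Itgax, Ank, Cox6a2 and Serpine2, and 1 lower, Igkc (0.0129%). In APP/PS1 members, 1 barcode per gene held 44.9% of the Itgax, 29.4% of the Lpl, 28.4% of the Ank and 26.2% of the Cox6a2 UMIs. In microglia-poor members the higher genes were Cst7, Fabp5 and Serpine2 (0.0888%), and 5 were lower (0.148%), namely Igkc, Cd79a, Il16, Rab5a and Wfdc17. As given above, Igkc and Cd79a rested on very few barcodes of wild-type and TERF2DN-Tg, so that they do not describe a level shared by members. Lpl, a lipase, shows the difference between the sets: it was at 23.7, 50.8, 283 and 191 CPM in all members, and at 4.43, 5.0, 9.05 and 158 CPM in microglia-poor ones. Only 14 microglia-poor members were left in APP/PS1, so that a level there rests on few barcodes. The part of microglial RNA in the other differences was not tested.

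**Figure D4:**
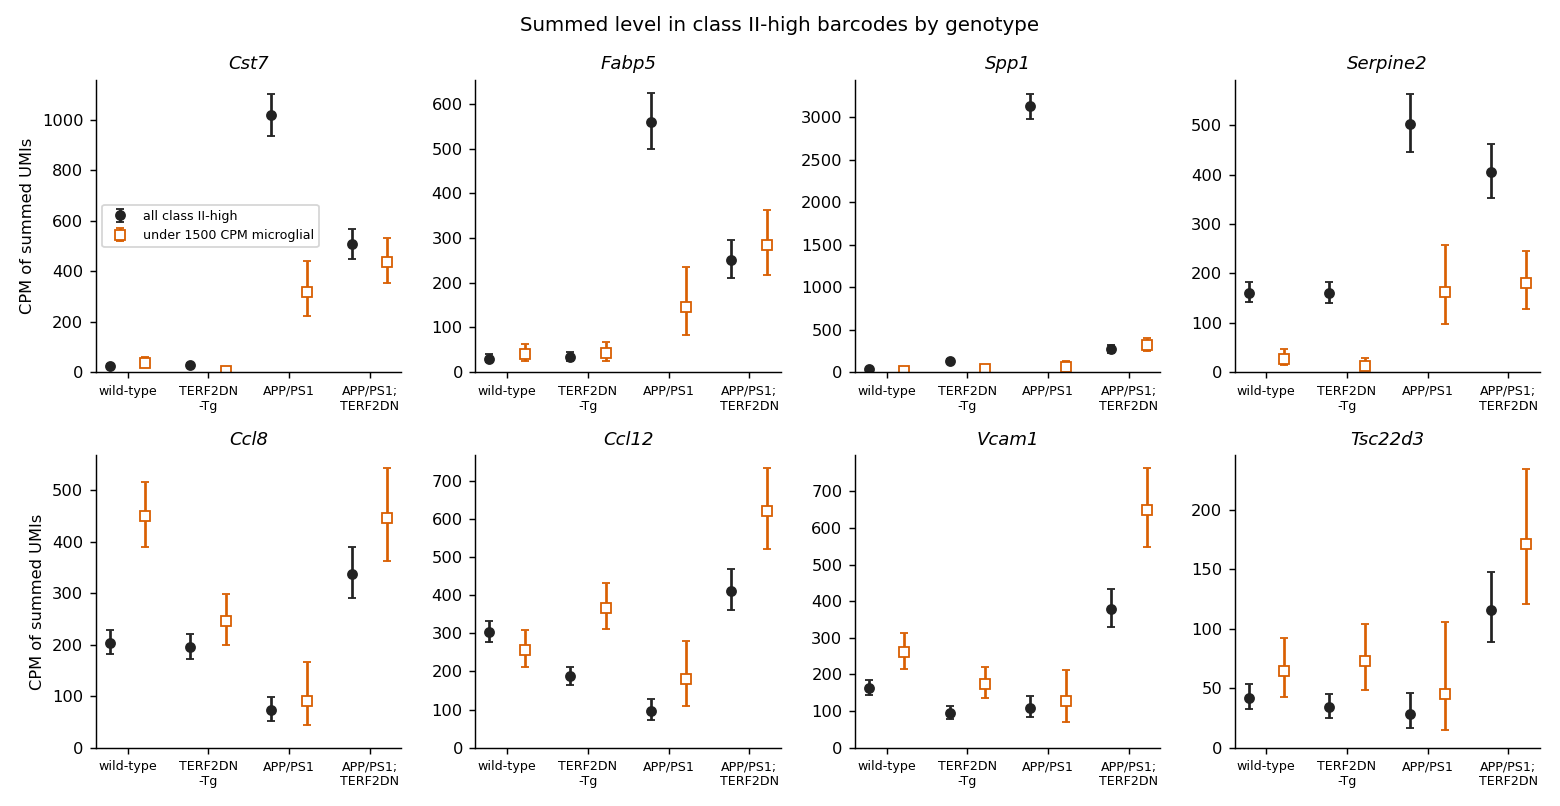
Summed level in CPM of 8 genes in members by genotype, filled circles for all 296 members and open squares for the 161 microglia-poor ones, with exact Poisson 95% intervals. Cst7, Fabp5 and Serpine2 are higher in both libraries with APP/PS1 in both sets, Spp1 is high in APP/PS1 in the whole set alone, and Ccl8, Ccl12, Vcam1 and Tsc22d3 are higher in the combined genotype than in APP/PS1 in both sets.

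Of 10 measured chemokines 4 passed the limit as higher in the combined genotype than in APP/PS1 (Ccl8, Ccl9, Ccl12 and Cxcl13) and none as lower (list median 0.69, all measured genes 0.04), and in microglia-poor members 5 of 8 did. Ccl8 was at 204, 196, 72.5 and 338 CPM in members, lowest in APP/PS1, with a ratio of the combined genotype to APP/PS1 of 4.66 (3.31 to 6.70). Ccl12 was at 303, 188, 97.3 and 412 CPM (ratio 4.23, 3.14 to 5.79), although 167 of its 474 wild-type UMIs came from 1 barcode. Vcam1, an adhesion molecule, was at 163, 94.6, 110 and 378 CPM (ratio 3.44, 2.58 to 4.65) and at 261, 175, 127 and 648 CPM in microglia-poor members. Fkbp5 and Tsc22d3, targets of the glucocorticoid receptor, were at 36.4, 43.8, 24.8 and 110 CPM and at 42.2, 33.8, 28.3 and 116 CPM. All 5 had a higher level in the combined genotype than in the other 3 libraries, and their log2 ratios against APP/PS1 kept their sign in microglia-poor members, at 1.53 to 2.19. The same 2 glucocorticoid targets were also high in class II-low barcodes of the combined genotype, at 142 and 107 CPM against 23.04 and 39.0 CPM in APP/PS1. Ccl12 did not show this there, with 411 CPM against 385 CPM in APP/PS1.

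Spp1, osteopontin, went the other way in the whole set, with 48, 176, 1767 and 150 UMIs in members (30.7, 135, 3127 and 271 CPM). A single APP/PS1 barcode held 892 of the 1767 UMIs, and a single TERF2DN-Tg barcode 154 of the 176. In microglia-poor members Spp1 was at 13.3, 35.0, 63.3 and 315 CPM, so that the log2 ratio of the combined genotype to APP/PS1 changed from -3.43 to 2.01. Fabp5 likewise changed from -1.09 to 0.88 in that comparison. An Spp1 UMI was found in 23.5% of endothelial barcodes and 25.8% of microglia-poor members of the combined genotype (16.1% and 17.2% after thinning). In APP/PS1 these shares were 6.67% and 21.4% (0% and 0% after thinning). The part of free RNA in the Spp1 change was not tested.

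In TERF2DN-Tg against wild-type, Hmgb2, a chromatin protein high in dividing cells, was at 102, 226, 166 and 108 CPM, and 108 of the 294 TERF2DN-Tg UMIs came from 1 barcode. The proliferation gene Top2a had 2, 58, 20 and 0 UMIs, of which 34 and 18 in the middle pair of libraries came from 1 barcode each. Cd209a, a lectin of dendritic cells and macrophages, was at 156, 66.1, 60.2 and 41.6 CPM, highest in wild-type, with a TERF2DN-Tg to wild-type ratio of 0.424 (0.328 to 0.544). Stab1 was at 423, 254, 212 and 397 CPM and Gpx3 at 99.8, 48.4, 42.5 and 77.7 CPM. In microglia-poor members the log2 ratios of TERF2DN-Tg to wild-type for Cd209a, Stab1 and Gpx3 were -0.70, -0.87 and -0.77, the same direction. With 1 library per genotype, a difference between genotypes cannot be told apart from one between animals or preparations.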

How the data were processed

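Single-cell RNA-seq of CD11b-selected mouse brain cells was analysed from deposited raw UMI counts per gene and barcode. Per the file headers the counting program was Cell Ranger 6.1.2, and the submitters' processing notes name mm10. Libraries held 7950, 5565, 5599 and 5406 barcodes and 30702262 to 46255914 UMIs over 32285 genes. The lowest barcode total was 500 UMIs, and no source states the filter behind it.

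UMIs were summed by class and library. Class contrasts used edgeR 4.0.16 (quasi-likelihood, TMM, library as block, tested on simulated data) in R 4.3.3, with DESeq2 1.42.0 as an alternative. Libraries entered with 20 barcodes of each class (10 for the microglia-poor set). Doublets were called with scanpy 1.11.5 at 0.8% per 1000 barcodes and kept in the main results. Genotypes were compared by CPM with exact Poisson, conditional binomial and Clopper-Pearson intervals. Members and lists were chosen with earlier results of these data known. The named genes were the 12 highest and 12 lowest log2 differences past an adjusted p of 0.05, at a logCPM of 5 or more and in 1 direction in every library, and per genotype comparison the 8 highest and 8 lowest ratios with UMIs in 20% of the barcodes of the higher library. Rule, mitochondrial, ribosomal, haemoglobin, sex-linked and unnamed genes were left out of both. List members with the largest differences were added. Genes named for their counts in single barcodes, and Terf2 and Top2a, were chosen for those values. Alternatives changed UMI, mitochondrial, marker and class II limits, doublets, thinning, scaling, filters and single libraries. Clec7a and 2 other list symbols were not matched and not analysed here.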

Additional observations from a re-analysis of the deposited data

Results flagged for a closer look

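The TERF2DN-Tg to wild-type ratio and the ratio of the combined genotype to APP/PS1 went past 2-fold in opposite directions for Spp1 and Stmn1, and this difference was not tested. The difference of both log2 ratios of CPM + 20 was 5.05 for Spp1 and 2.15 for Stmn1 (2.149 before rounding). Spp1 had 48, 176, 1767 and 150 UMIs in members, and 38, 154, 892 and 45 of them came from 1 barcode in each library. Stmn1, a microtubule regulator, had 52, 125, 47 and 17 UMIs, with 33 of the 47 in APP/PS1 from 1 barcode.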

How the results depend on the processing

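The 24 named genes of each class contrast kept their direction under every alternative that could test them, but the number of calls moved with the processing. The 221 higher genes became 96 with DESeq2, 65 with 5 of the 7 border macrophage markers (3 libraries), 113 without barcodes holding 3 or more microglial markers (2 libraries) and 32 after thinning to 1000 UMIs, and 72 to 264 with 1 library left out. The 175 lower genes became 58 with DESeq2, 277 without a filter on low counts, 67 with 5 of 7 markers, 90 without barcodes holding 3 or more microglial markers, 113 without those with dendritic cell and monocyte markers and 53 after thinning, and 72 to 146 with 1 library left out. Fewer samples or UMIs enter the thinned and marker-restricted fits, and the cause of the other shifts was not tested. Against class II-high microglia, 214 higher genes became 367 without the filter, 62 after thinning and 89 to 280 with 1 library left out. The 226 lower genes became 441, 51 and 57 to 387, and 135 and 112 with class II limits of 20 UMIs and 0.2% of UMIs. Other list genes reversed. Csf1 turned to a log2 difference of -0.84 between the classes (0.2%), Rgs5 to -5.05 (0.2%) and Vtn to -2.24 (20 UMIs) and -2.21 (0.2%). Against microglia, without barcodes holding 3 or more microglial markers (2 libraries), Axl turned to 0.93, Cd74 to 0.99, Cd83 to 0.60 and Slc2a5 to -7.91. The Cd83 value did not pass there (edgeR adjusted p = 0.241). Under 1500 CPM Cd74 was 1.01 and Slc2a5 -3.22, and after thinning Cd74 was 0.63.

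Genotype counts depended on the added CPM. With 5 CPM in place of 20 the 96, 29, 60 and 60 genes past 2-fold (APP/PS1 and TERF2DN-Tg against wild-type, the combined genotype against APP/PS1 and against TERF2DN-Tg) became 440, 90, 222 and 289, with 50 CPM 36, 10, 18 and 20, and at 1.5-fold 612, 105, 444 and 472. Under 1500 CPM of microglial markers, an alternative chosen after seeing the data, they were 315, 64, 204 and 115. With 5 of 7 markers the first became 147, the third 110 and the fourth 165. With the 0.2% limit the second became 18, the third 117 and the fourth 100. Means over barcodes gave 15, 176 and 105 for these. Without barcodes holding 3 or more microglial markers the second was 69 and the fourth 96. For the third, 50 UMIs as a minimum gave 36 and removing doublets 99. The class II-high share was 19.8% in wild-type and 22.9% in TERF2DN-Tg with 5 of 7 markers, 18.8% in wild-type and 19.6% in APP/PS1 without barcodes holding 3 or more microglial markers, 35.4% in TERF2DN-Tg and 19.2% in APP/PS1 under 1500 CPM, and 21.4% in the combined genotype after thinning.

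No paired analysis was possible because each genotype has 1 library; class contrasts had library as a block throughout.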
